A study of Mus musculus with 24 samples.

Results

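The 8 genes described here act at the entry of glucose into the cell and at the point where its carbon is handed to mitochondria: the glucose transporters Slc2a1, Slc2a3 and Slc2a4, the hexokinases Hk1 and Hk2, the lactate dehydrogenase subunit Ldha, and the pyruvate dehydrogenase kinases Pdk3 and Pdk4. They were measured in the mouse uterus by 11 probe sets that named one of these genes and no other, of 12422 probe sets tested, and they are 8 of the 8251 genes that the array named singly. The genes were selected on these same arrays, around the higher Pdk3 and Slc2a3 signal of wild-type uteri given progesterone (P4). Their wild-type P4 values, and the genotype and time differences built from them, are therefore descriptions. How many of them passed the threshold of the fit is counted beside the share of all probe sets, and nothing is read from those counts.

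Glucose crosses the plasma membrane by facilitated diffusion through the GLUT proteins that Slc2a genes encode, and hexokinases trap it by phosphorylation. Pyruvate dehydrogenase kinases phosphorylate and switch off the pyruvate dehydrogenase complex, which turns pyruvate into acetyl-CoA, and lactate dehydrogenase interconverts pyruvate and lactate. In the uterus P4 acts through its nuclear receptor, and glucose use is known to matter for the stromal cell changes that prepare for implantation.

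All mice had been ovariectomized at 6 weeks of age, and injections began 2 weeks later. Wild-type mice and progesterone receptor knockout (PRKO) mice received 1 mg of P4 in sesame oil or the oil alone as vehicle. The 4 h groups were killed 4 h after a single injection. The groups labelled 40 h had 4 injections at 12 h intervals and were killed 4 h after the last. Each of the 8 groups had 3 arrays of whole-uterus RNA. The protocol describes pooling the RNA of 5 animals for each combination of genotype and treatment and leaves unstated if separate pools lay behind the 3 arrays of a group, so the p-values measure only the spread between arrays, which may be technical. Strain, and the cells in which the receptor was lost, are not given in the labels. Signals are MAS5 intensities scaled to a common trimmed mean, and log2 changes were taken after adding 32, which compresses the changes of dim probe sets.

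Array quality, tissue markers and the targeted gene bear on all values. The Gapdh 3' to 5' signal ratio, a sign of RNA degradation, was 3.67 on the second vehicle array and 3.25 on the second P4 array of the wild-type 4 h groups, and 1.23 to 1.86 on the other 22. All 7 measured smooth muscle markers, 10 of 12 stromal markers and 7 of 11 epithelial markers were above the array median on every array. Of 9 adipocyte markers 5 were above it too, and no adipocyte marker was listed at 0. The Pgr probe set was dim and did not separate the genotypes cleanly: vehicle signals were 144.7 ± 4.50 in wild-type and 126 ± 4.48 in PRKO uteri at 4 h (SD, n = 3), and 147 ± 16.1 and 129 ± 9.59 at 40 h, where the ranges overlapped. Since the labels do not say which part of the gene was disrupted, this probe set checks nothing about genotype. In whole-tissue RNA, fewer cells of a type and less RNA per cell cannot be told apart.

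Among the transporters, Slc2a3 stood out by its levels in P4-treated wild-type uteri at both times. Slc2a3 encodes GLUT3, a transporter of high glucose affinity that is abundant in neurons and in early embryos and placenta. It has 2 probe sets, called brighter and dimmer after their mean signals. At 4 h, the brighter one read 469, 481 and 528 on the 3 wild-type vehicle arrays and 750.3, 813 and 628 on the 3 P4 arrays. At 40 h, it read 662, 469 and 426 on vehicle arrays and 828, 878 and 881 on P4 arrays. The P4 arrays lay above all vehicle arrays at each time, and the first vehicle array at 40 h stood well above the other two. The log2 change was 0.53 ± 0.12 (SE) at 4 h and 0.72 ± 0.12 at 40 h, ranks 77 and 46 from the top of 12422.

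The dimmer Slc2a3 probe set gave a different picture at 4 h. It read 142, 176 and 197 on wild-type vehicle and 203, 141 and 203 on P4 arrays, so the groups overlapped, and the change was 0.07 ± 0.11. That value changed sign when vehicle array 1 (-0.040), P4 array 1 (-0.0041) or P4 array 3 (-0.0044) was left out, and it was 0.23 without the 2 arrays of high Gapdh ratio. At 40 h both probe sets pointed the same way: the dimmer one read 213, 171 and 149 on vehicle and 282, 252 and 253 on P4 arrays, with no overlap and a change of 0.50 ± 0.11. Over all 24 arrays the 2 probe sets correlated at r = 0.83, a description that includes the differences between groups.

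In PRKO uteri neither Slc2a3 probe set passed with P4. The brighter one read 369, 446 and 369 on vehicle and 393, 387 and 421 on P4 arrays at 4 h, a change of 0.02 ± 0.12 with a 95% interval of -0.23 to 0.27 (limma, adjusted p = 1). At 40 h it read 389.9, 460.3 and 453 on vehicle and 397, 375 and 416 on P4 arrays, a change of -0.12 ± 0.12 with an interval of -0.37 to 0.13 (limma, adjusted p = 0.776). Vehicle and P4 arrays overlapped at both times. For the dimmer probe set the changes were 0.09 ± 0.11 and -0.03 ± 0.11. The P4 change in PRKO minus that in wild-type uteri was -0.51 ± 0.17 at 4 h and -0.84 ± 0.17 at 40 h for the brighter probe set, and 0.02 ± 0.16 and -0.53 ± 0.16 for the dimmer one.

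Without P4, Slc2a3 signals in PRKO uteri were below those in wild-type uteri at 4 h, by a margin that did not pass over all probe sets. For the brighter probe set, the 3 PRKO vehicle arrays lay below the 3 wild-type ones at 4 h, with a difference of -0.30 ± 0.12 (limma, unadjusted p = 0.0201, adjusted p = 0.796). The dimmer probe set gave -0.27 ± 0.11 (limma, unadjusted p = 0.0266, adjusted p = 0.891), with overlapping arrays. At 40 h the differences were -0.22 ± 0.12 and -0.21 ± 0.11, both with overlap. These comparisons share their wild-type vehicle arrays with the P4 comparisons.

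**Figure D1:**
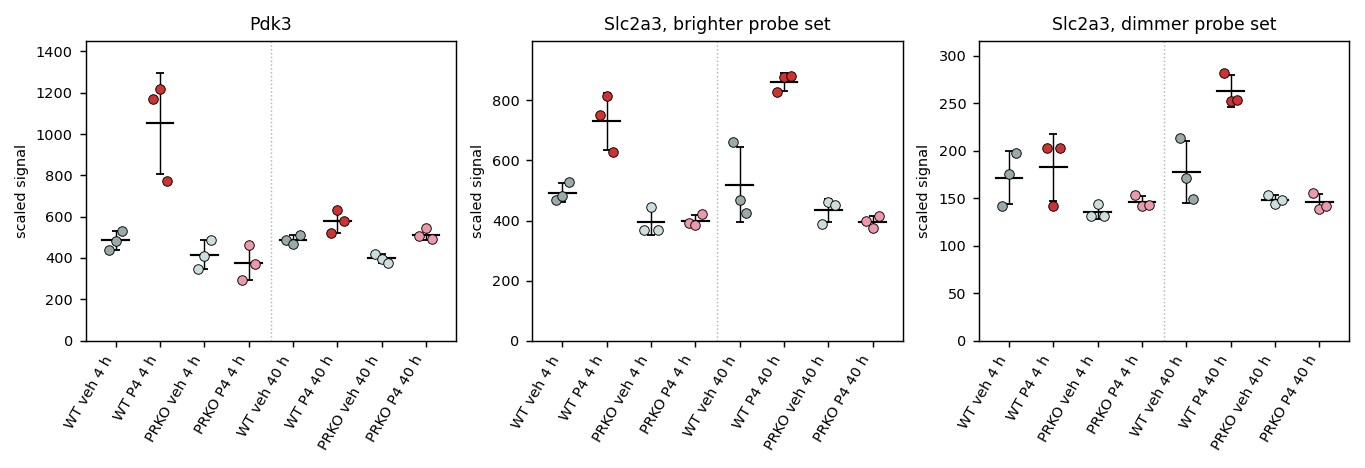
Scaled signal (linear axis from 0) of Pdk3 and of both Slc2a3 probe sets on each of the 24 arrays, by genotype (WT, wild type), treatment (veh, vehicle) and time; points are arrays, horizontal lines group means and vertical bars 1 SD of 3 arrays. Pdk3 is high in wild-type P4 uteri at 4 h (771 to 1217) and near vehicle levels at 40 h, whereas the brighter Slc2a3 probe set is high at both times and the dimmer one at 40 h.

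The other transporters differed less. Slc2a1 encodes GLUT1, the transporter of basal glucose uptake in most tissues. At 4 h it read 681, 644 and 584 on wild-type vehicle and 830.1, 669.8 and 726 on P4 arrays, with overlap, a change of 0.21 ± 0.15. At 40 h it read 937, 719.8 and 624 on vehicle and 524, 678 and 579 on P4 arrays, a change of -0.33 ± 0.15, and the groups overlapped again. The 40 h change was -0.17 without vehicle array 1, the array of 937. In PRKO uteri its changes were 0.02 ± 0.15 (interval -0.29 to 0.32) and 0.05 ± 0.15 (interval -0.25 to 0.36), with adjusted p = 1 and 0.926 in limma.

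Slc2a4 encodes GLUT4, the insulin-responsive transporter of fat and muscle. Its brighter probe set read 222, 199 and 197 on wild-type vehicle and 273, 205 and 240.0 on P4 arrays at 4 h. At 40 h it read 275, 226 and 204 on vehicle and 229, 212 and 226 on P4 arrays. The groups overlapped at both times, and the changes were 0.18 ± 0.10 and -0.06 ± 0.10. The dimmer probe set ranged from 64.9 to 86.3 over all 24 arrays. In PRKO uteri the brighter probe set gave 0.10 ± 0.10 (interval -0.11 to 0.32) and -0.13 ± 0.10 (interval -0.34 to 0.08). Neither value passed.

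The log2 changes of the hexokinases and Ldha lay between -0.16 and 0.12 in the 4 comparisons of P4 with vehicle. Hk1, the hexokinase of most tissues, gave a signal of 5794, 3333 and 6155 on wild-type vehicle and 5174, 4226 and 6070.4 on P4 arrays at 4 h. The lowest value in each group, 3333 and 4226, came from the 2 arrays of high Gapdh ratio. At 40 h it read 5271, 6357 and 6163 on vehicle and 6022, 5638 and 5059 on P4 arrays. The changes were 0.05 ± 0.17 and -0.09 ± 0.17 in wild-type and 0.07 ± 0.17 and -0.03 ± 0.17 in PRKO uteri. The wild-type 4 h value changed sign with the arrays used. It was -0.09 without the 2 arrays of high Gapdh ratio, -0.23 without vehicle array 2 alone and -0.07 without P4 array 3, and it reached 0.21 without vehicle array 3.

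Hk2, the inducible hexokinase of muscle and fat, read 1485, 1519 and 1357 on wild-type vehicle and 1568, 1636 and 1537 on P4 arrays at 4 h with its brighter probe set. All 3 P4 arrays lay above the vehicle arrays, by a change of 0.12 ± 0.08. At 40 h the wild-type groups overlapped, at 0.07 ± 0.08. In PRKO uteri it read 1527, 1456 and 1617 on vehicle and 1478, 1310.2 and 1329.5 on P4 arrays at 40 h, with a small overlap and a change of -0.16 ± 0.08 (limma, unadjusted p = 0.0617, adjusted p = 0.703). The dimmer Hk2 probe set ranged from 13.9 to 24.7 on all arrays, below the offset of 32, so it carries little about changes.

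Ldha, the subunit that predominates in glycolytic tissues, read 3019, 2782 and 3002 on wild-type vehicle and 3071, 2544 and 2639 on P4 arrays at 4 h. At 40 h it read 3017, 2601 and 2603 on vehicle and 2510.3, 2681 and 2717 on P4 arrays. Its groups overlapped in every P4 comparison. The changes were -0.10 ± 0.09 and -0.05 ± 0.09 in wild-type and 0.09 ± 0.09 and 0.06 ± 0.09 in PRKO uteri, where the intervals ran from -0.09 to 0.28 and from -0.12 to 0.25.

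**Figure D2:**
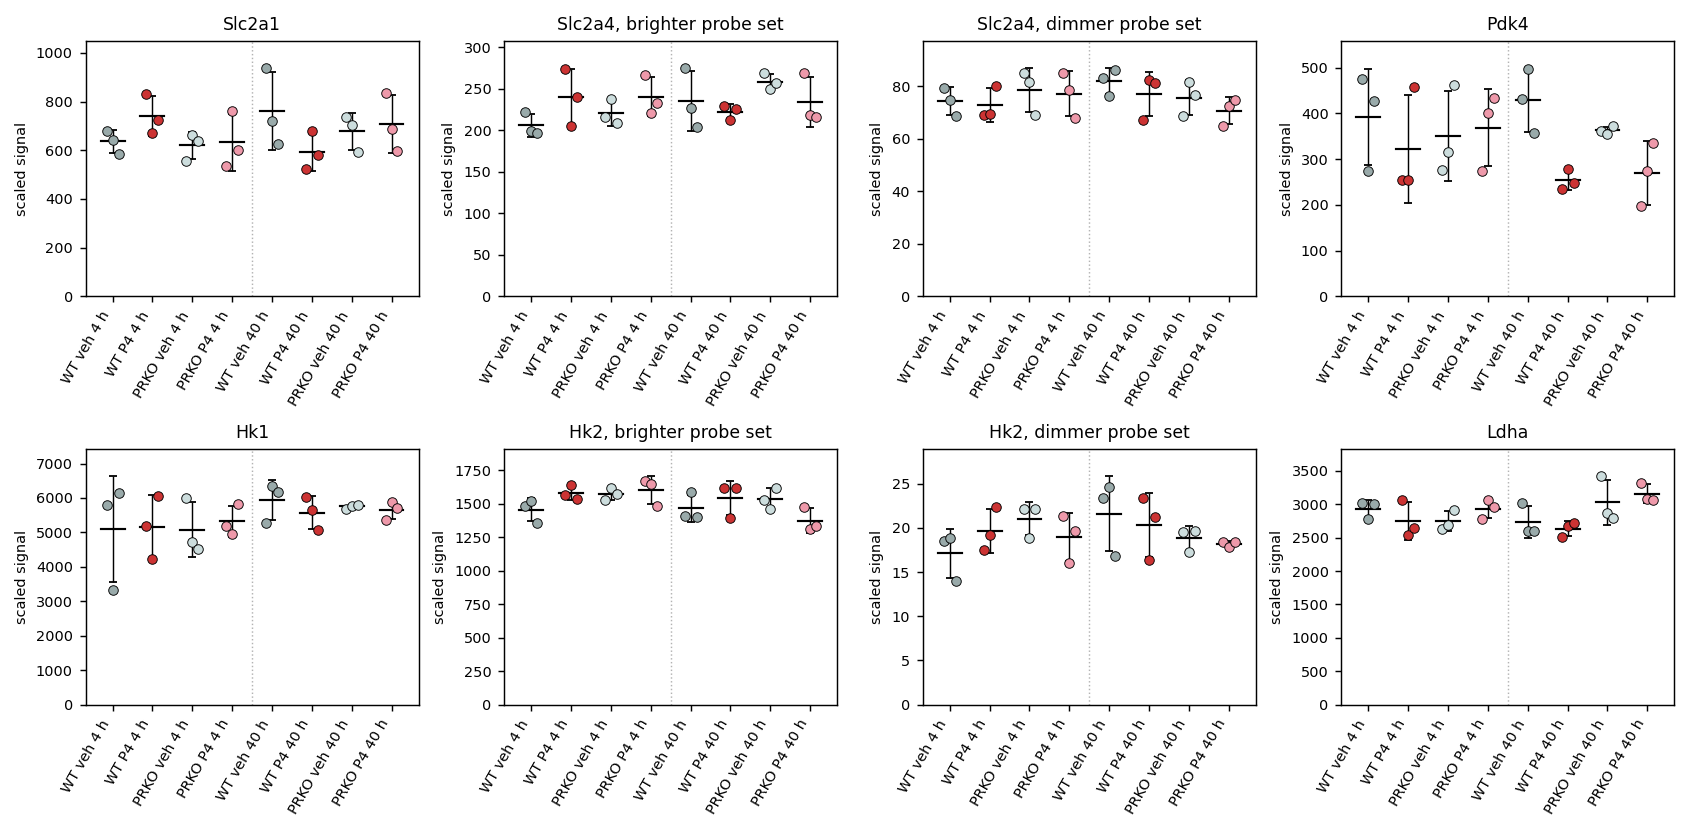
Scaled signal (linear axis from 0) on each of the 24 arrays for Slc2a1, both Slc2a4 probe sets, Pdk4, Hk1, both Hk2 probe sets and Ldha; points are arrays, horizontal lines group means and vertical bars 1 SD of 3 arrays. Wild-type groups overlap in most panels, while Pdk4 at 40 h is lower on all P4 arrays (235 to 277) than on the vehicle arrays (357 to 498), and Hk1 is lowest on the second wild-type vehicle array at 4 h.

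Of the pyruvate dehydrogenase kinases, Pdk3 lay above vehicle in P4-treated wild-type uteri and Pdk4 below it at 40 h. Pdk3, the isoenzyme least sensitive to inhibition by pyruvate, read 440.0, 481 and 532 on wild-type vehicle arrays and 1167, 1217 and 771 on P4 arrays at 4 h. All P4 arrays lay above all vehicle arrays, and P4 array 3 was far below the other two. The change was 1.05 ± 0.15, which is 2.06-fold after the offset and rank 10 from the top of 12422. Without P4 array 3 it was 1.25. That array also had the lowest signal of the 3 P4 arrays at 59 of the 65 probe sets called higher at 4 h, a count chosen on the same arrays. Without the 2 arrays of high Gapdh ratio the Pdk3 change was 0.93.

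At 40 h Pdk3 stood close to vehicle. It read 485, 467 and 510.3 on wild-type vehicle and 521, 633 and 579.6 on P4 arrays, still without overlap, a change of 0.23 ± 0.15 and rank 693. The 40 h change minus the 4 h change was -0.82 ± 0.21, and without P4 array 3 of the 4 h group it was -1.02. In PRKO uteri at 4 h Pdk3 read 348, 410.2 and 488 on vehicle and 293, 462 and 373 on P4 arrays, which overlapped. That change was -0.14 ± 0.15 with an interval of -0.46 to 0.17 (limma, adjusted p = 1), and the PRKO change minus the wild-type change was -1.19 ± 0.21.

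At 40 h the P4 arrays lay above vehicle for Pdk3 in PRKO uteri as well. PRKO vehicle arrays read 421, 396 and 375 and PRKO P4 arrays 505, 544 and 490.4, without overlap. The change was 0.35 ± 0.15, with an interval of 0.03 to 0.66, and it did not pass (limma, unadjusted p = 0.0323, adjusted p = 0.703). The genotype difference of the 40 h effect was 0.12 ± 0.21, with an interval of -0.33 to 0.56. Vehicle-treated PRKO uteri read lower than vehicle-treated wild-type uteri on all arrays at 40 h (-0.28 ± 0.15, limma, adjusted p = 1) and overlapped with them at 4 h (-0.21 ± 0.15).

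Pdk4, the isoenzyme induced by fasting and by PPAR and glucocorticoid signals, ran the other way at 40 h. It read 432, 498 and 357 on wild-type vehicle arrays and 235, 277 and 248 on P4 arrays. All P4 arrays were lower, with a log2 change of -0.68 ± 0.23. In PRKO uteri it read 361, 356 and 372 on vehicle and 197, 274 and 336 on P4 arrays, again all lower, a change of -0.42 ± 0.23 with an interval of -0.89 to 0.05 (limma, unadjusted p = 0.077, adjusted p = 0.703). Without P4 array 1, the array of 197, the PRKO change was -0.24. The genotype difference of the 40 h changes was 0.26 ± 0.32, with an interval of -0.40 to 0.93. At 4 h the arrays spread widely, with 476, 274 and 427 on wild-type vehicle and 254, 255 and 457 on P4 arrays, and the changes were -0.28 ± 0.23 in wild-type and 0.07 ± 0.23 in PRKO uteri.

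Summed adipocyte marker signals were lower on P4 than on vehicle arrays at 40 h in both genotypes. The sum was 14368 to 16474 on wild-type vehicle arrays and 6083 to 10402 on P4 arrays. Of the 9 markers 5 passed as lower, all 9 being below 0 with a median of -0.84. In this wild-type comparison 1.54% of all probe sets passed in either direction. In PRKO uteri the sum was 15574 to 17833 with vehicle and 12802 to 15021 with P4, and none of the 9 passed. With the adipocyte score as a covariate, the wild-type 40 h change was -0.27 ± 0.39 for Pdk4 and 0.63 ± 0.22 for the brighter Slc2a3 probe set. That score was 9.70 to 9.96 on the wild-type vehicle arrays of 40 h and 8.70 to 9.29 on the P4 arrays. Since the groups do not overlap in it, the score and P4 cannot be told apart in those uteri. Skeletal muscle markers had a summed signal of 5501 to 5557 on wild-type vehicle and 7286 to 7671 on P4 arrays at 40 h. Of 14, 1 passed as higher and 8 were above 0, with a median of 0.07. Only 3 of the 14 were above the array median on every array. In PRKO uteri the sums were 5133 to 5750 with vehicle and 5783 to 7024 with P4, though 11 of 14 changes were below 0. With the skeletal muscle score as a covariate, the wild-type 40 h change was -0.29 ± 0.28 for Pdk4. It was 0.66 ± 0.16 for the brighter Slc2a3 probe set and 0.05 ± 0.20 for Pdk3. This score was 8.14 to 8.15 on wild-type vehicle and 8.30 to 8.34 on P4 arrays, so it too cannot be told apart from P4 there.

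In wild-type uteri at 40 h the summed signals of smooth muscle, stroma and macrophage markers were also higher on every P4 array than on the vehicle arrays. Smooth muscle markers summed to 26414 to 28213 on wild-type vehicle and 30896 to 33303 on P4 arrays, with all 7 above 0 at a median of 0.35 and none passing. In PRKO uteri their sums were 25336 to 25651 and 26694 to 27948, again without overlap, with all 7 above 0 at a median of 0.07. Uterine stroma markers summed to 22891 to 28763 on wild-type vehicle and 31014 to 34352 on P4 arrays. Of 12, 8 were above 0 at a median of 0.28, and 3 passed as higher. In PRKO uteri the stroma sums were 25318 to 26431 with vehicle and 26522 to 29578 with P4, also without overlap. There 9 of 12 were above 0 at a median of 0.12, and none passed. Epithelial markers had overlapping sums in wild-type uteri, and 1 of 11 passed as lower. Macrophage markers summed to 3894 to 4160.5 on wild-type vehicle and 4278 to 4557 on P4 arrays. Of 7, 5 were above 0 at a median of 0.04, and none passed. In PRKO uteri their sums were lower with P4, 3300 to 3444 against 3497 to 3754 with vehicle. Of 9 endothelial markers 1 passed as lower. Among all single probe sets, 19.8% had no overlap between the wild-type groups of 40 h, and 1.54% passed in that comparison. No such share was taken for summed signals. The part of these tissues in the member values was not tested.

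**Figure D3:**
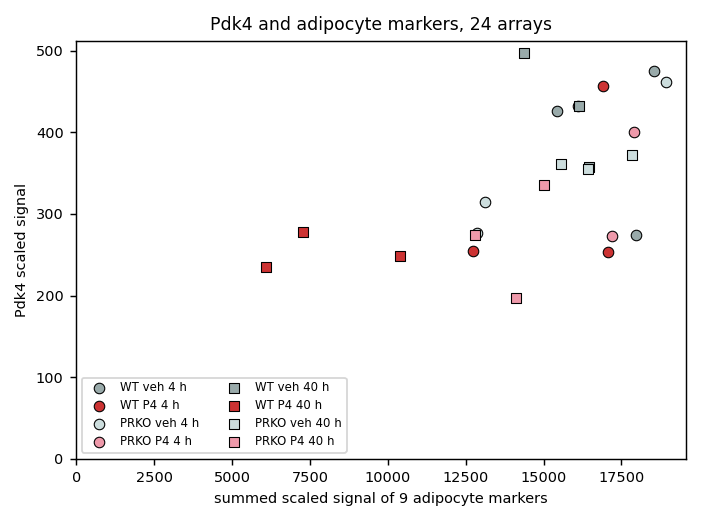
Pdk4 scaled signal (vertical axis, linear) against the summed scaled signal of 9 adipocyte markers (horizontal axis, linear), 1 point per array, circles for 4 h and squares for 40 h, coloured by genotype and treatment. The 3 wild-type P4 arrays of 40 h have the 3 lowest marker sums (6083 to 10402) and Pdk4 signals of 235 to 277. The lowest Pdk4 signal, 197, lies at a sum of 14110 (PRKO, P4, 40 h), and 254 lies at 17058 (wild type, P4, 4 h). The sums of the PRKO P4 group of 40 h (12802 to 15021) are below those of its vehicle group (15574 to 17833). The part of adipocytes in the Pdk4 signal was not tested.

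Promoter sequences of the 2 kinases are shown because their P4 arrays lay on opposite sides of the vehicle arrays at 40 h. Neither change passed in the reported fit in either genotype, and the Pdk3 change in wild-type uteri was small. Each is the 250 bases before the RefSeq gene start on build GRCm38.p6, for Pdk3 chrX:93832151-93832400 and for Pdk4 chr6:5496279-5496528, both read 5' to 3' on the minus strand. Capitals mark matches on either strand to ACGTG, the core that hypoxia-inducible factors bind, or to TGTTCT, the half-site shared by progesterone and glucocorticoid receptors.
Pdk3: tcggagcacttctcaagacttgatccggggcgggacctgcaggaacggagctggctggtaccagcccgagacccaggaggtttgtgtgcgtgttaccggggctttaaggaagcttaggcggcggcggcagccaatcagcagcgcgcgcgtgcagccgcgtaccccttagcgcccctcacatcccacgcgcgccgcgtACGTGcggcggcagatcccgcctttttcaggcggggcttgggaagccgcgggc
Pdk4: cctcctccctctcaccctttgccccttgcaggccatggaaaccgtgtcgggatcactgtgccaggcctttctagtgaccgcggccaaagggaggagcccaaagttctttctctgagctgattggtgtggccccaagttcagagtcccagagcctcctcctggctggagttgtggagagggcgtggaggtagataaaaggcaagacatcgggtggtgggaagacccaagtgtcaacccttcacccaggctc
The Pdk3 window held 1 ACGTG core, whose far end lay 53 bases before the start, and no TGTTCT. The Pdk4 window held neither of these sequences, the GCGTG form not being counted. Among the windows of 32851 mouse promoters, 16.6% held an ACGTG core and 16.1% a TGTTCT. RefSeq windows were found for 6 of the 8 genes, Slc2a3 and Slc2a4 having none here. Slc2a1 had 1 ACGTG, Hk2 had 2, and the first of 2 Ldha windows had 5. Of those 5, 4 lay in 2 copies of the E-box CACGTG, which reads as ACGTG on each strand. A TGTTCT was found in the first of 2 Hk1 windows, 31 bases before the start. These are letter matches in short windows only.

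Counted over all 11 probe sets, the wild-type values that chose the genes stand beside their backgrounds as follows. At 4 h, 2 of 11 passed an adjusted p under 0.05 (Pdk3 and the brighter Slc2a3 probe set), where 0.708% of all probe sets did. At 40 h 2 passed (both Slc2a3 probe sets) against 1.54%. Groups did not overlap for 3 of 11 at 4 h against 6.67% of all, and for 4 of 11 at 40 h against 19.8%. The median change of the 11 was 0.07 at 4 h and -0.05 at 40 h, with 0.00 over all probe sets at each time. The genotype difference passed for 1 of 11 at 4 h (Pdk3; 0.0966% of all) and for 0 at 40 h (0.105% of all), and the time difference for 0 (0.475% of all). At an unadjusted p under 0.05 in limma, the wild-type P4 change counted 2 of 11 at 4 h (6.23% of all) and 4 at 40 h (11.7% of all), the genotype difference 2 at 4 h (3.49% of all) and 2 at 40 h (9.1% of all), and the time difference 3 (6.39% of all). The count at an adjusted p under 0.05 was 1 at 4 h without the 2 arrays of high Gapdh ratio, and 0 at 40 h with the adipocyte score as a covariate. The share of all probe sets passing was not taken for those fits. Nothing is read from these counts, since the choice of genes used the same arrays.

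The comparisons outside the choice of genes gave no member past the threshold. In PRKO uteri limma called 0% of all probe sets with P4 at 4 h and 0% at 40 h. At 4 h no member had an unadjusted p under 0.05, against 1.9% of all probe sets. At 40 h 1 of 11 did (Pdk3), against 6.69%. Groups did not overlap for 0 of 11 at 4 h (4.31% of all) and for 2 of 11 at 40 h, Pdk3 and Pdk4 (22.3% of all). With weights for array quality the PRKO 40 h count was 4 of 11, namely Pdk3 (0.41 ± 0.09), Pdk4 (-0.38 ± 0.13), the brighter Slc2a3 probe set (-0.20 ± 0.07) and the brighter Hk2 probe set (-0.19 ± 0.05), where 29.8% of all probe sets passed.

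Between vehicle-treated genotypes 0 of 11 passed at 4 h (0.185% of all), with 2 at an unadjusted p under 0.05 in limma (5.02% of all), and 0 at 40 h (0.0644% of all), with none at that level (3.08% of all). Groups did not overlap for 3 of 11 at 4 h (6.05% of all), the brighter Slc2a3 probe set being lower and both Hk2 probe sets higher in PRKO uteri. At 40 h this held for 1, Pdk3 (10.3% of all). Between vehicle uteri of 40 h and 4 h no member passed in wild-type (0.29% of all) or PRKO uteri (0% of all), and none had an unadjusted p under 0.05 in limma (15.3% and 11.1% of all). The largest of these time differences was 0.26 ± 0.17 for Hk1 in wild-type uteri, whose 4 h vehicle group holds an array of high Gapdh ratio.

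**Figure D4:**
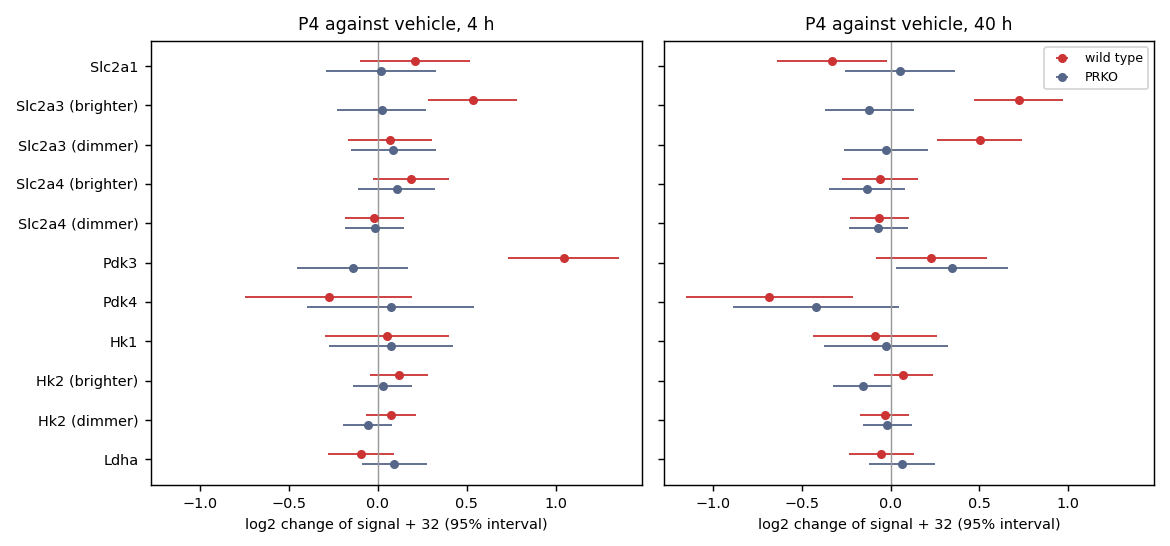
Log2 change of P4 against vehicle for the 11 probe sets at 4 h and 40 h, with 95% intervals from the fit over 24 arrays (3 arrays a group), wild type in red and PRKO in blue; 0 means no change. In wild type, Pdk3 lies at 1.05 at 4 h and both Slc2a3 probe sets at 0.50 and 0.72 at 40 h, while every PRKO interval includes 0 except that of Pdk3 at 40 h (0.03 to 0.66).

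Over 24 arrays, the named genes whose log2 signal ran most nearly with Pdk3 were Adh5 (Pearson r = 0.90), Klk1 (0.87), Acot1 (0.86), Pnkd (0.86) and Pip5k1b (0.85). Adh5 is the glutathione-dependent formaldehyde dehydrogenase, Klk1 a kallikrein protease, Acot1 a cytosolic acyl-CoA thioesterase and Pip5k1b a phosphoinositide kinase. Their wild-type P4 changes were 0.53 to 1.00 at 4 h and -0.04 to 0.33 at 40 h. With the brighter Slc2a3 probe set ran Npl (0.97), Hopx (0.97), Acot7 (0.95), Myd88 (0.92) and Lrp2 (0.92). Npl is a sialic acid lyase, Hopx a homeodomain cofactor, Acot7 an acyl-CoA thioesterase, Myd88 an adaptor of innate immune receptors and Lrp2 the endocytic receptor megalin. Their wild-type changes were 0.45 to 1.13 at 4 h and 0.56 to 1.68 at 40 h. Pdk3 and the brighter Slc2a3 probe set correlated with each other at r = 0.67. All these correlations include the differences between groups and describe these arrays only.

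Of the surrounding pathways, Pfkfb3 and Gys1 rose at 4 h and Ndrg1 fell at 40 h in wild-type uteri given P4. Of 123 genes in 11 lists, 90 were measured. At 4 h 2 of the 90 rose and 0 fell, where 0.708% of all probe sets passed, and the median change was -0.0005, against 0.0015 over all probe sets. Pfkfb3, which makes the activator of phosphofructokinase fructose 2,6-bisphosphate, read 473, 297 and 461 on vehicle and 822, 693 and 641 on P4 arrays, with no overlap. It rose by 0.78 ± 0.16 (limma, adjusted p = 0.0133), and its other probe set gave 0.17 ± 0.12 and did not pass. Gys1, the glycogen synthase of muscle and most other tissues, read 711, 665 and 709.6 on vehicle and 967, 892 and 869 on P4 arrays and rose by 0.37 ± 0.07 (limma, adjusted p = 0.0048). In the arrays without the 2 of high Gapdh ratio neither passed (limma, 0.60, adjusted p = 0.276, for Pfkfb3 and 0.35, adjusted p = 0.0845, for Gys1). Pfkfb3 also lost its call without vehicle array 2 (limma, adjusted p = 0.0969), P4 array 1 (0.128) or P4 array 2 (0.061).

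In PRKO uteri Pfkfb3 read 233, 239 and 235 on vehicle and 256, 248 and 309 on P4 arrays at 4 h, and Gys1 736, 767 and 711 and 705, 681 and 739. Their changes were 0.18 ± 0.16 and -0.06 ± 0.07. The genotype difference was -0.61 ± 0.22 for Pfkfb3 and -0.43 ± 0.09 for Gys1, and neither passed (limma, adjusted p = 0.936 and 0.0726). At the brighter Pfkfb3 probe set, vehicle-treated PRKO uteri read lower than wild-type ones at 4 h on every array. That difference was -0.70 ± 0.16 and did not pass (limma, adjusted p = 0.096). The other Pfkfb3 probe set, which is dim, gave 0.02 ± 0.12 in the same comparison.

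The glycolytic enzyme list had 15 of 21 genes measured, and none passed in either direction at 4 h or 40 h in wild-type uteri, with 0 and 1 at an unadjusted p under 0.05 in limma and changes of -0.14 to 0.15 at 4 h and -0.36 to 0.25 at 40 h. The list of the pyruvate dehydrogenase complex, its other kinases and its phosphatases had 6 of 11 measured and none past the threshold (0 and 1 with an unadjusted p under 0.05 in limma at 4 h and 40 h), with changes of -0.13 to 0.01 and -0.30 to 0.13. Of 4 other hexose transporters and 4 lactate and pyruvate carriers measured, none passed at either time. Pentose phosphate enzymes (7 measured), gluconeogenic enzymes (6), insulin signalling genes (11) and genes of fatty acid oxidation and PPAR targets (12) had no passing member either. At an unadjusted p under 0.05 in limma, 0 pentose phosphate, 0 gluconeogenic, 0 insulin signalling and 2 fatty acid genes counted at 4 h, and 3, 3, 3 and 2 at 40 h. The hexose transporters had none at either time, and the lactate and pyruvate carriers had 1 at each. The glycogen enzymes (12 measured) held Gys1 as their only passing gene, at 4 h, and the hypoxia response list (11 measured) held Ndrg1, at 40 h. Over all lists, 8 of 90 genes at 4 h and 20 of 90 at 40 h had an unadjusted p under 0.05 in wild-type uteri, where 6.23% and 11.7% of all probe sets did. With P4 in PRKO uteri limma called none of the 90, and 2 at 4 h and 6 at 40 h had an unadjusted p under 0.05, where 1.9% and 6.69% of all did.

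At 40 h in wild-type uteri 1 of the 90 list genes fell and 0 rose, where 1.54% of all probe sets passed, and 26 of 90 changes were above 0, with a median of -0.05 against 0.00 over all probe sets. The gene that fell was Ndrg1, a gene induced by hypoxia and cell stress, which read 1334, 1363 and 1309 on vehicle and 1021, 939 and 842 on P4 arrays. Its change was -0.51 ± 0.11 (limma, adjusted p = 0.0153), and its other probe set gave -0.60 ± 0.13 (limma, adjusted p = 0.0182). At 4 h the changes were 0.25 ± 0.11 and 0.29 ± 0.13, and the time difference of the P4 effect passed at both probe sets (limma, -0.75, adjusted p = 0.0213, and -0.89, adjusted p = 0.0265). In PRKO uteri at 40 h the first probe set gave -0.27 ± 0.11 (limma, adjusted p = 0.703), and the genotype difference, 0.24 ± 0.15, did not pass. The 40 h call was lost with the adipocyte score as covariate (-0.60, limma, adjusted p = 1) or the skeletal muscle score (-0.24, limma, adjusted p = 0.327), and without any one of 4 arrays: vehicle array 2 or 3 or P4 array 2 or 3 (limma, adjusted p = 0.0504 to 0.0927). The time difference was lost in 9 of 24 alternatives, with values of -0.51 to -0.84 over all of them. The gluconeogenic enzyme Pck1, singled out after its values were seen because it had the lowest change of any list gene, gave -1.56 ± 0.50 at 40 h and did not pass (limma, adjusted p = 0.152). Pck1 is also made in fat, and the adipocyte marker sums given above were lower in the same uteri; its own dependence on them was not tested.

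**Figure D5:**
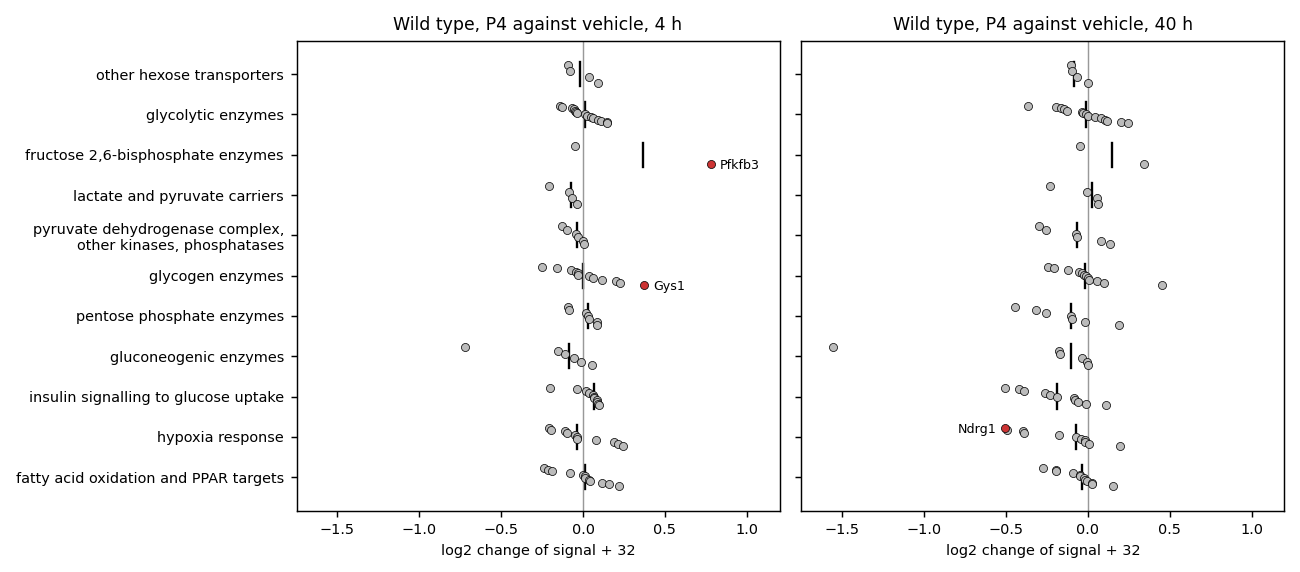
Log2 change of P4 against vehicle in wild-type uteri at 4 h and 40 h for the 90 measured genes of 11 pathway lists, 1 point a gene at its probe set of highest mean signal; black bars are list medians and red points passed an adjusted p under 0.05. Pfkfb3 (0.78) and Gys1 (0.37) passed at 4 h and Ndrg1 (-0.51) at 40 h; all other points are grey.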

How the data were processed

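Whole-uterus RNA was measured on 24 Affymetrix arrays, 8 groups of 3. The deposited values are signal intensities on a linear scale, 1 per probe set and array. Per the submitters' processing notes they came from MAS5, the Affymetrix summarization software. The software version was not given in the sources used here. Of 12488 probe sets, 66 controls were left out of the tests. Each array was scaled to a 2%-trimmed mean of 500, 32 was added, and log2 was taken. Group means were fitted over all 24 arrays with limma 3.58.1 in R 4.3.3 (moderated two-sided tests with an intensity trend, 11 comparisons), with Benjamini-Hochberg adjustment over 12422 probe sets and a threshold of 0.05. The number of arrays limits the precision. The procedure was tested on simulated data.

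Platform annotation named 1 gene for 10833 probe sets, several for 396 and none for 1193. The members, the pathway and marker lists and the comparisons were chosen with earlier results of these data known. Named genes are every member, Pgr, up to 3 passing genes per list and comparison by smallest adjusted p, and for Pdk3 and Slc2a3 the 5 genes of highest Pearson r. The labels number the arrays of a group from 1 to 3. Deviations of same-numbered P4 and vehicle arrays correlated at 0.114, 0.516 and 0.35 for numbers 1 to 3 of the wild-type 4 h groups. The value of 0.516 joins the 2 arrays of high Gapdh ratio. For PRKO arrays the 4 h values were 0.627, 0.253 and -0.124. The 40 h values were 0.481, 0.0668 and 0.451 for PRKO arrays and 0.116, 0.142 and 0.0686 for wild-type arrays. The reported fit used no pairing, and a replicate block was tried as an alternative. No 2 arrays held identical values. Other alternatives changed the offset, the scaling, a filter on dim probe sets, the arrays in the fit, their weights and covariates for the Gapdh ratio and for adipocyte and skeletal muscle scores. Promoter windows are RefSeq's, on GRCm38.p6.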

Additional observations from a re-analysis of the deposited data

Results flagged for a closer look

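The Pdk3 effect of P4 at 4 h differed between the genotypes in the fit over all probe sets: the PRKO change minus the wild-type change was -1.19 ± 0.21 on the log2 scale, with 3 arrays a group. The wild-type change used in choosing Pdk3 enters this difference, so the test is no independent evidence. Over 25 alternatives the value lay between -1.39 and -1.04, and it fell short of the threshold in 11 of them.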

How the results depend on the processing

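Member probe sets past the threshold were counted in 11 comparisons, and 193 of 226 alternative counts lay within 1.5 times the reported count. Most comparisons reported 0 and meet that bound whenever 0 is found again. Where the reported count was above 0, fewer alternatives met it. They were 11 of 20 for wild-type P4 at 4 h, 12 of 19 at 40 h and 14 of 25 for the genotype difference at 4 h. With P4 in wild-type uteri at 4 h (2 of 11 reported), the count was 1 with the arrays of that time alone, with array weights, without the 2 arrays of high Gapdh ratio or with the adipocyte score as covariate, 0 with the arrays of the comparison alone, and 1 to 2 when arrays were left out in turn. At 40 h (2 reported) it was 0 with the adipocyte score, 1 with the skeletal muscle score and 1 to 2 when arrays were left out. The genotype difference at 4 h (1 reported) gave 0 with the arrays of that time alone, without the arrays of high Gapdh ratio or with the adipocyte score, and 0 to 1 with arrays left out. At 40 h (0 reported) it gave 2 with array weights, 1 with the Gapdh ratio as covariate and 0 to 1 with arrays left out. The time difference (0 reported) gave 1 with array weights and 0 to 1 with arrays left out, and PRKO uteri at 40 h (0 reported) gave 4 with array weights. With array weights 0.491% of all probe sets passed for wild-type P4 at 4 h and 12% for the genotype difference at 40 h. For the time difference and PRKO uteri at 40 h it was 0.612% and 29.8%. For the other alternatives, the replicate block included, such shares were not taken, so nothing is read from their counts. With arrays left out in turn, the wild-type change of Pdk3 at 4 h was 0.93 to 1.25, that of the brighter Slc2a3 probe set at 40 h 0.60 to 0.90, and that of the dimmer Slc2a3 probe set at 4 h -0.040 to 0.21, against 0.23 without the arrays of high Gapdh ratio. The replicate block gave 1.05 for Pdk3 at 4 h and moved no count of calls by over 1.5 times. At 40 h in wild-type uteri it counted 3 members, Pdk4 (-0.68) among them. With arrays left out in turn, the wild-type change was -0.54 to -0.13 for Pdk4 at 4 h and -0.46 to -0.17 for Slc2a1 at 40 h, and the PRKO change of Pdk3 at 4 h was -0.29 to 0.010. Pfkfb3 lost its 4 h call in 7 of 20 alternatives and Gys1 in 3 of 20, among them for both the arrays of 4 h alone, those of the comparison alone and the exclusion of the arrays of high Gapdh ratio. The cause of these differences was not tested. The dim filter removed 1 probe set each of Slc2a4 and Hk2, so changes of those 2 are limited by signal.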
